A study of Mus musculus with 4 samples.

Results

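*Ccn1*, *Ccn2*, *Ankrd1*, *Axl*, *Amotl1*, *Amotl2*, *Ajuba*, *Lats2*, *Tead1* and *Yap1* are 8 widely used target genes of YAP and TEAD together with the genes of TEAD1 and YAP themselves. They were taken by name, with earlier results of these data known, and all 10 were among the 20197 genes of the table. They were compared between 4T1 cells with high and low mitochondrial membrane potential (MMP), to ask whether this transcriptional program differs between cells that differ in mitochondrial activity. 4T1 is a mouse mammary tumor line, labelled WT in genotype and grown in culture as a model of breast cancer. Cells of both groups were stained with 20 nM MitoSpy Red, whose uptake into mitochondria follows their membrane potential, then detached with trypsin and sorted. The brightest 5% (high MMP) and the dimmest 5% (low MMP) were each collected as 2 samples of 100000 cells, with no unsorted sample analysed here. The study treats its replicates here as independent experiments, but the labels do not say which samples shared a culture or sorting day, and p-values measure only the spread between these 4 samples.

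YAP is a coactivator without a DNA-binding domain of its own. The Hippo kinase cascade, which runs from MST to LATS, ends in phosphorylation of YAP and its paralog TAZ, which holds them in the cytoplasm. When the kinases are less active, for instance in spread cells under mechanical tension, YAP and TAZ enter the nucleus, bind TEAD transcription factors and switch on genes for secreted matricellular proteins and cytoskeletal and junctional regulators. Several of these targets, such as *Lats2*, *Amotl2* and *Ajuba*, encode proteins that act on the pathway in turn. In mammary tumor cells the program is known for its links to growth, invasion and survival.

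The TEAD site is the sequence that ties these genes to the pathway, so it was looked for in the 250 bases before the start of each gene in RefSeq (GRCm38.p6). Of the 10 genes, 8 had an entry (*Ccn2* and *Tead1* did not), and *Lats2* had more than 1. The TEAD core GGAATG, or CATTCC when read on the other strand, was found in 6 of these 8 genes and in 12.6% of 32851 promoter windows of the same length. *Ankrd1* and *Ajuba* each held 2 such cores. *Amotl1* and *Lats2* held none within this window. Their windows lay inside the GENCODE span of each gene, so the bases before the outermost annotated start were not searched. The AP-1 sequence TGANTCA, searched on both strands, was in 0 of the 8 genes and 6.75% of all windows, and the CArG box, the SRF site, in 0 of the 8 and 1.47% of all windows, so no motif overlapped another. A match is a description of the sequence and not evidence of binding. The whole window is shown for *Ccn1*, the gene with the widest spread of levels, 5′ to 3′ on the strand of the gene, with the TEAD core in capitals.
Ccn1, chr3:145649986-145650235, minus strand: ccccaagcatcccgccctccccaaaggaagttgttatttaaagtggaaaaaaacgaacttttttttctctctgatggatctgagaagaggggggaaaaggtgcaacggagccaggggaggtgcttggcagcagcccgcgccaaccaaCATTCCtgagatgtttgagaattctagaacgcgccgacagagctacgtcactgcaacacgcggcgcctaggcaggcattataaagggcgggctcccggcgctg
For the other genes with a core, 30 bases around each core are shown so that its flanks and orientation can be compared. In GENCODE, both *Ankrd1* cores lie in an exon of 1 transcript that starts upstream of the RefSeq start, and the *Amotl2* core lies within 5 transcripts of its gene, in an exon of 2 of them. The cores of the other genes lie outside their annotated transcripts.
Ankrd1, chr19:36120037-36120066, minus strand: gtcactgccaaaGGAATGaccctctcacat
Ankrd1, chr19:36119950-36119979, minus strand: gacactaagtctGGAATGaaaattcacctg
Axl, chr7:25788949-25788978, minus strand: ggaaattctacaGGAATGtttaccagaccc
Amotl2, chr9:102717727-102717756, plus strand: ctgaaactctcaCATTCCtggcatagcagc
Ajuba, chr14:54577830-54577859, minus strand: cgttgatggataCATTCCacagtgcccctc
Ajuba, chr14:54577808-54577837, minus strand: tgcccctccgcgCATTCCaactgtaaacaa
Yap1, chr9:8004720-8004749, minus strand: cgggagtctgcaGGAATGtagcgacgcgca

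Of the 10 genes, the secreted target *Ccn1* and the nuclear target *Ankrd1* had the largest differences, 1.53-fold and 1.38-fold higher in high MMP cells by the ratio of means, whereas the ratio was 1.00 for *Yap1* and 1.03 for *Lats2*. None of the 10 genes passed limma at an adjusted p of 0.05, and neither did any other gene (0% of 20197 tested, with 2011 at an unadjusted p under 0.05). At an unadjusted p under 0.05, 2 of the 10 genes (*Ccn1* and *Ankrd1*) were higher in high MMP cells, against 3.95% of all genes, and 0 of the 10 were lower, against 6.01%. DESeq2, run on reads recovered from the normalized values, called the same 2 genes higher, where it called 0.676% of the 11974 genes it gave an adjusted p. edgeR without a block called none of the 10 and 0 genes in all (1423 at an unadjusted p under 0.05). All 10 genes were highest in the same library, high MMP replicate 2, as were 26.1% of the 9999 genes that averaged 100 or more normalized reads, called well-expressed genes below.

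The libraries held 22591970 to 26395015 reads assigned to genes, and each of the 10 genes had 656 to 32131 reads in every library. Values are normalized reads, in which each library is scaled to a total of 20000000. Differences are log2(value + 1) in high MMP cells minus that in low MMP cells, with the SE and 95% interval of limma. The cells carried the markers of an epithelial tumor line, with *Epcam* at 3647 to 4619 normalized reads and 6 of 6 epithelial markers in the table. Of the leukocyte markers only *Ptprc* was in the table, at 0 to 2 reads per library, and the endothelial markers *Pecam1* and *Cdh5* together had 2 to 8 reads. Of the 4 fibroblast markers, *Col3a1* and *Lum* were not in the table, and *Dcn* had 2 to 12 reads per library. *Pdgfra* had 319 and 363 normalized reads in high and 536 and 589 in low MMP cells.

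Levels between the 10 genes were compared per kilobase of exon, as normalized reads per kb averaged over the 4 libraries. *Ccn1* (4915 per kb, 3132 to 6203 over the libraries) and *Axl* (4709 per kb, 3869 to 5342) were the most abundant and overlapped each other. *Ccn2* (2232 per kb) and *Ankrd1* (1864 per kb) came next and also overlapped. *Amotl1*, *Amotl2* and *Ajuba* formed a further group of overlapping levels at 709, 706 and 695 per kb. *Yap1* (480 per kb) and *Tead1* (420 per kb) overlapped below them, and *Lats2* was lowest at 84.1 per kb (74.7 to 95.8). Between these 5 levels the ranges over libraries did not overlap. The 10 genes thus ran from the 61.1 to the 99.3 percentile of all genes per kb.

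Among the secreted targets, *Ccn1* (Cyr61, a matricellular protein that binds integrins; chr3:145646976-145649981, minus strand) had 11483 and 12525 normalized reads in high MMP replicates 1 and 2 and 6324 and 9365 in low MMP replicates 1 and 2. Both high MMP values were above both low ones, and the low MMP samples differed more from each other than the high MMP samples did. The log2 difference was 0.64 (SE 0.22, 95% interval 0.04 to 1.24; limma adjusted p = 0.472). DESeq2 gave 0.66 with an adjusted p of 0.0399. Leaving out low MMP replicate 1, its lowest library, brought the difference to 0.36. *Ccn1* is also an immediate-early gene. Of 8 other listed genes of that class, 0 had both high MMP libraries below both low ones, against 22.7% of well-expressed genes. Both were above for 3, as for *Ccn1*, against 14.9%. Among these 3, *Egr1* had 10354 and 9783 normalized reads in high and 6032 and 8141 in low MMP cells. *Junb* had 9496 and 7615 in high and 5558 and 7568 in low MMP cells. Both were lowest in low MMP replicate 1, as was *Ccn1*, but highest in high MMP replicate 1. In *Fos* the groups overlapped, with 2419 and 521 in high and 326 and 2357 in low MMP cells. Of the 2 libraries low in *Fos*, low MMP replicate 1 was the lowest in *Ccn1* and high MMP replicate 2 the highest. The part of this class of genes in the difference of *Ccn1* was not tested.

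*Ccn2* (CTGF, the connective tissue growth factor of the same family; chr10:24595442-24598683, plus strand) had 5926 and 8558 normalized reads in high MMP cells and 5799 and 5262 in low MMP cells. The groups did not overlap, but high MMP replicate 1 was only slightly above low MMP replicate 1. The fold of the means was 1.31 and the log2 difference 0.37 (SE 0.21, 95% interval -0.19 to 0.93; limma adjusted p = 0.690, DESeq2 adjusted p = 0.576). Without high MMP replicate 2 the difference was 0.10. *Ccn1* and *Ccn2* therefore shared their highest library but not their lowest, which was low MMP replicate 1 for *Ccn1* and low MMP replicate 2 for *Ccn2*.

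*Ankrd1* (an ankyrin-repeat protein of the nucleus and of muscle sarcomeres, strongly induced by YAP; chr19:36111961-36120099, minus strand) had 5984 and 6501 normalized reads in high MMP cells against 4294 and 4735 in low MMP cells. The groups did not overlap and the replicates within each group lay close together, and this gene had the smallest p of the 10. Its log2 difference was 0.47 (SE 0.10, 95% interval 0.19 to 0.74; limma adjusted p = 0.472, DESeq2 adjusted p = 0.0471). Leaving out each library in turn kept the difference between 0.40 and 0.54.

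The receptor gene *Axl* (a receptor tyrosine kinase for GAS6; chr7:25757273-25788705, minus strand) had 19473 and 26888 normalized reads in high MMP cells and 25235 and 23211 in low MMP cells. The high MMP replicates were its lowest and its highest library, with both low MMP samples between them. The log2 difference was -0.08 (SE 0.20, 95% interval -0.63 to 0.47; limma adjusted p = 0.964), and it was 0.15 without high MMP replicate 1 and -0.31 without high MMP replicate 2. *Axl* held a TEAD core in its window, as did *Ccn1* and *Ankrd1*, so genes with the core spanned the range of differences from -0.08 to 0.64.

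**Figure D1:**
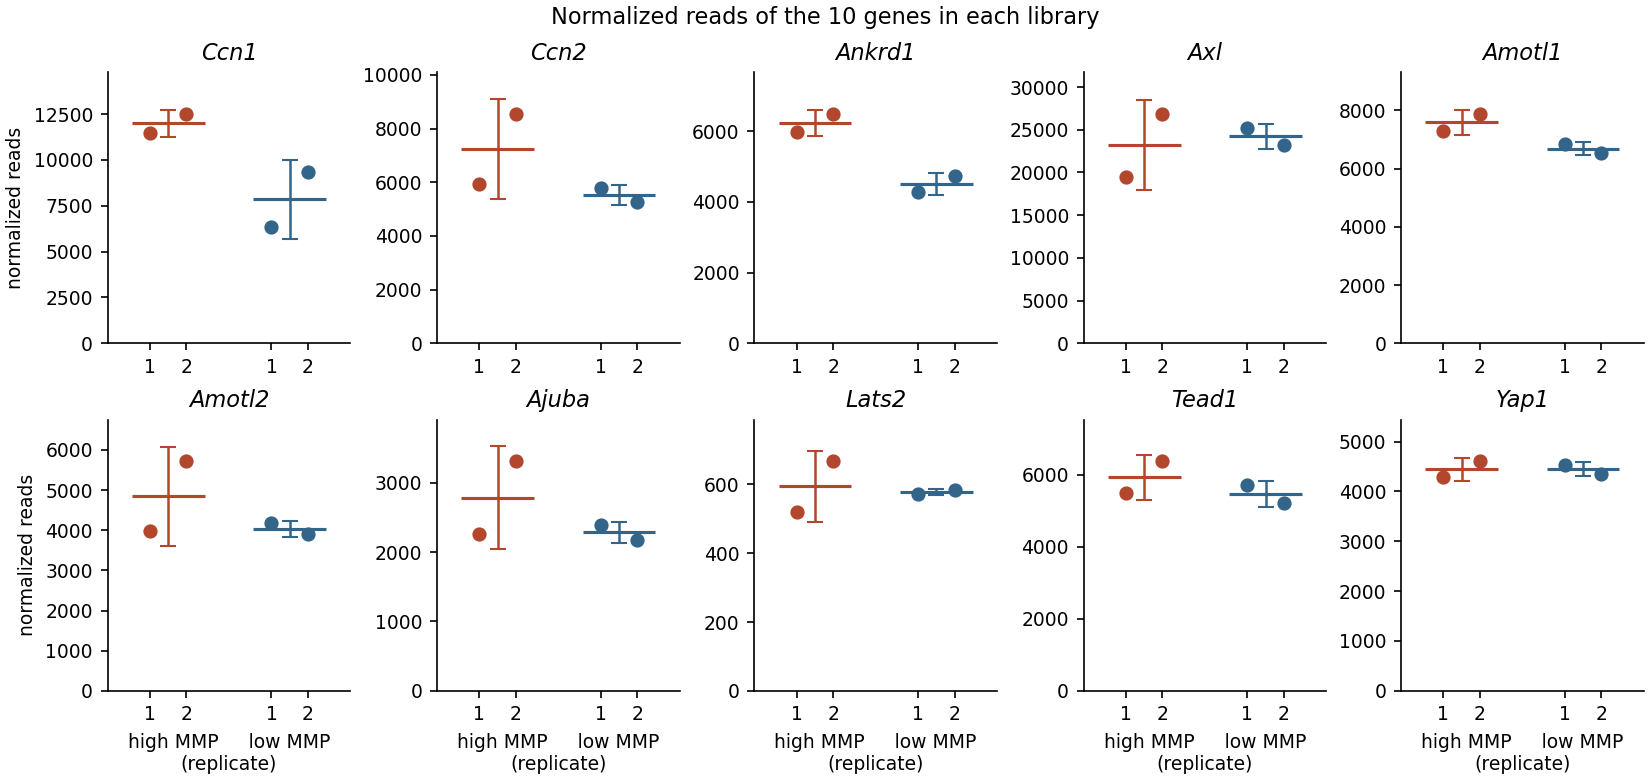
Normalized reads (linear axis from 0, each library scaled to the same total) of each of the 10 genes in the 2 high MMP (red) and 2 low MMP (blue) libraries, numbered by replicate. Points are libraries, horizontal lines are group means and bars are ± SD (n = 2). In every panel the highest point is high MMP replicate 2, and for *Ccn1*, *Ccn2*, *Ankrd1* and *Amotl1* both red points lie above both blue ones.

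Among the junctional scaffolds and inhibitors, *Amotl1* (an angiomotin-like protein that holds YAP at junctions and actin; chr9:14541966-14645056, minus strand) had 7288 and 7890 normalized reads in high MMP cells and 6849 and 6522 in low MMP cells. The groups did not overlap, with a fold of 1.14 and a log2 difference of 0.18 (SE 0.10, 95% interval -0.08 to 0.44; limma adjusted p = 0.665). Its relative *Amotl2* (chr9:102716672-102733418, plus strand) had 3977 and 5719 in high and 4178 and 3895 in low MMP cells. Here a single library, high MMP replicate 2, stood above 3 similar ones, so that the difference of 0.24 (SE 0.20, 95% interval -0.30 to 0.78; limma adjusted p = 0.794) became -0.02 without it. *Amot*, the third angiomotin gene, differed by 0.13 (SE 0.14; limma adjusted p = 0.855).

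*Ajuba* (a LIM-domain protein that inhibits LATS kinases at tense junctions; chr14:54567472-54577558, minus strand) repeated the pattern of *Amotl2*, with 2261 and 3310 normalized reads in high and 2392 and 2179 in low MMP cells. Its difference was 0.26 (SE 0.21, 95% interval -0.30 to 0.83; limma adjusted p = 0.788), and -0.01 without high MMP replicate 2. *Lats2*, the YAP kinase that is itself a target (chr14:57689662-57758388, minus strand), had 521 and 668 normalized reads in high and 572 and 584 in low MMP cells. As for *Axl*, the low MMP samples lay between the high MMP samples, and the difference was 0.03 (SE 0.15, 95% interval -0.37 to 0.43; limma adjusted p = 0.994), or -0.15 without high MMP replicate 2.

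Of the transcriptional components, *Tead1* (chr7:112679318-112906807, plus strand) had 5490 and 6383 normalized reads in high MMP cells and 5723 and 5207 in low MMP cells. The groups overlapped and the difference was 0.12 (SE 0.12, 95% interval -0.21 to 0.44; limma adjusted p = 0.85), or 0.0081 without high MMP replicate 2 and 0.23 without high MMP replicate 1. *Yap1* (chr9:7931999-8004596, minus strand) had 4280 and 4608 in high and 4540 and 4342 in low MMP cells, the narrowest spread of the 10 genes. The interval of its log2 difference, -0.24 to 0.24, bounds how far its transcript level could differ between the groups on this test (difference 0.00028, SE 0.088; limma adjusted p = 0.999), and the sign changed without high MMP replicate 2 (-0.05), without low MMP replicate 2 (-0.03) and under quantile normalization (-0.0073). Transcript levels do not report the phosphorylation or location of YAP, which were not measured in these libraries.

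**Figure D2:**
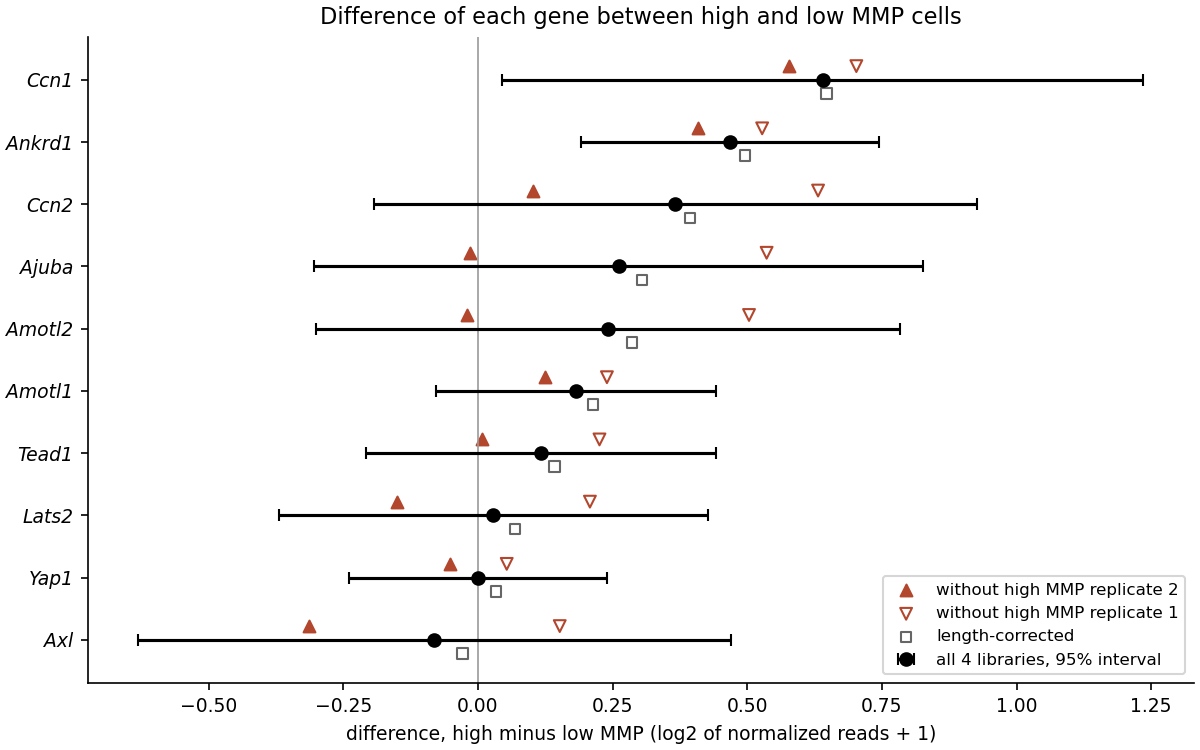
Difference of each gene between high and low MMP cells, on the log2 scale of normalized reads plus 1. Black points and bars are the limma difference and its 95% interval over all 4 libraries, filled and open triangles leave out high MMP replicate 2 or 1, and squares are corrected for gene length. The interval lies above 0 for *Ccn1* and *Ankrd1*, and the filled triangles of *Amotl2*, *Ajuba*, *Lats2*, *Yap1* and *Axl* lie below 0.

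Across the 10 genes the median difference was 0.21, against -0.04 over all genes of the table and -0.03 over well-expressed genes. Fitted differences were above 0 for 9 genes, 1 of which (*Yap1*) turned negative under quantile normalization, and below 0 for *Axl*. Both high MMP libraries were above both low ones for 4 of the 10 genes (*Ccn1*, *Ccn2*, *Ankrd1* and *Amotl1*), against 14.9% of well-expressed genes, and below both for 0 of 10, against 22.7%. The size of the median rested on which high MMP library was used. It was 0.37 without high MMP replicate 1 and -0.0029 without high MMP replicate 2, and it was 0.26 and 0.17 without low MMP replicate 1 and 2. High MMP replicate 1 taken alone was above both low MMP libraries for 4 of the 10 genes, against 36.6% of well-expressed genes, between them for 3, against 16.9%, and below both for 3, against 46.4%.

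**Figure D3:**
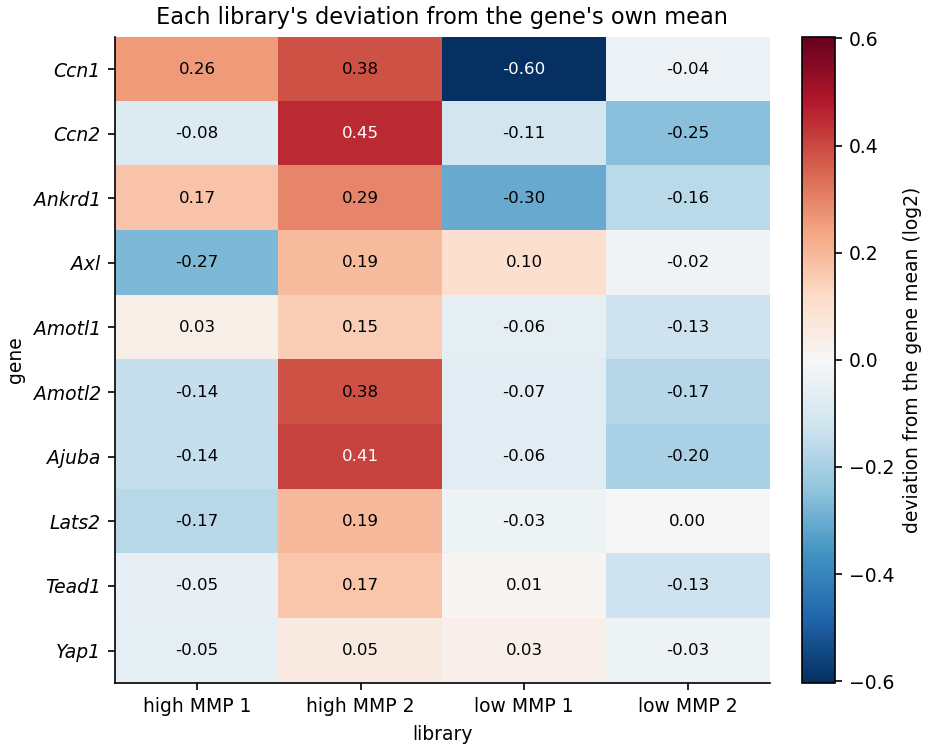
Deviation of each library (columns) from the mean of that gene over the 4 libraries (rows are the 10 genes), in log2 units, with red above and blue below the mean. The high MMP 2 column is above 0 in every row, by 0.05 for *Yap1* to 0.45 for *Ccn2*, while the high MMP 1 column is above 0 for *Ccn1*, *Ankrd1* and *Amotl1* only.

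The high MMP libraries also differed from each other by gene length, and the 10 genes were spread unevenly over lengths. Over well-expressed genes, split by exonic length into 3 groups of about equal size, the median of high MMP replicate 2 minus replicate 1 was -0.12 for the shortest (up to 3506 bases), 0.04 for the middle and 0.15 for the longest group (from 6115 bases). The share of genes highest in high MMP replicate 2 was 14.3%, 23.5% and 40.6% in the same order. *Ccn1*, *Ccn2* and *Ankrd1* belonged to the shortest group, *Axl* and *Ajuba* to the middle one and the other 5 genes to the longest. For the 10 genes the median of high MMP replicate 2 minus replicate 1 was 0.29, against 0.02 for well-expressed genes, with *Ajuba* (0.55), *Ccn2* (0.53), *Amotl2* (0.52) and *Axl* (0.47) farthest apart.

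After a correction that removed the trend with exonic length within each library, an alternative added after the data were seen, 7 of the 10 genes were highest in high MMP replicate 2, against 23.9% of well-expressed genes. The exceptions were *Amotl1*, *Tead1* and *Yap1*, all of the longest group. The high MMP libraries were then both above the low ones for 6 of the 10 genes, against 20.8%, and the median difference was 0.25. The difference of *Ccn1* was 0.65 and that of *Ankrd1* 0.50 after the correction, with limma adjusted p-values of 0.510 and 0.384.

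**Figure D4:**
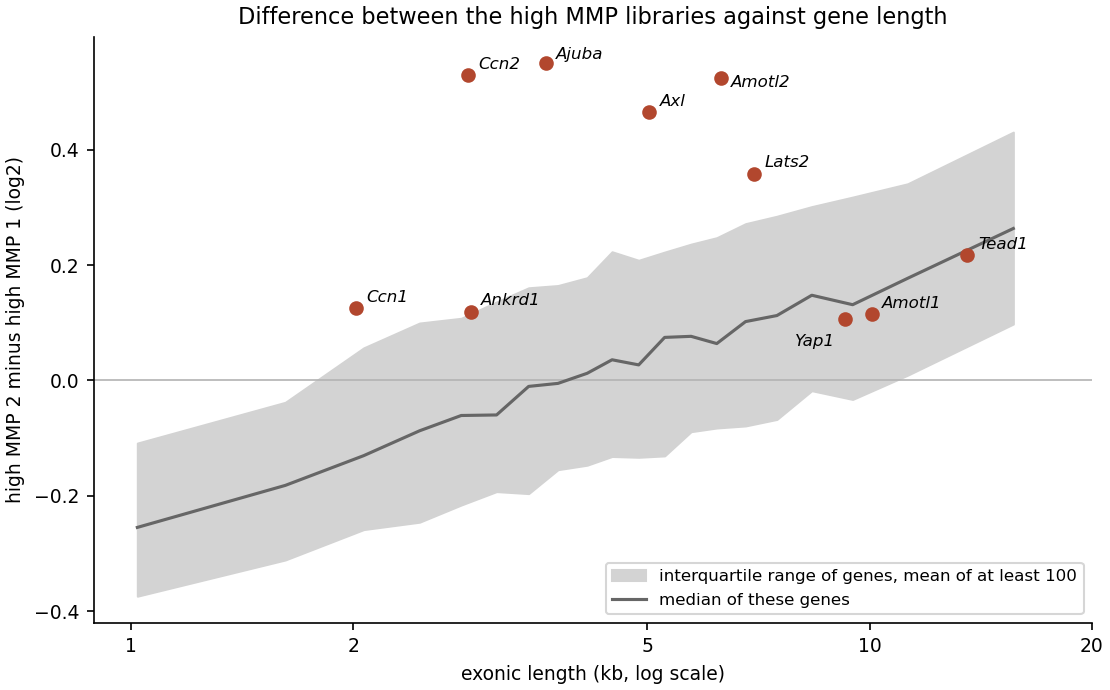
High MMP replicate 2 minus replicate 1 in log2 units against exonic length in kb (log scale). Red points are the 10 genes, the grey line is the median of well-expressed genes in 20 length bins and the grey band their interquartile range. The line climbs from -0.255 in the shortest bin to 0.264 in the longest, with *Tead1*, *Amotl1* and *Yap1* inside the band and *Ccn2*, *Ajuba*, *Axl*, *Amotl2*, *Lats2* and *Ccn1* above it, and *Ankrd1* at its upper edge.

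The other genes of the pathway were taken from lists by role. Of the Hippo kinase cascade, all 15 listed genes were in the table. None passed limma (0 also at an unadjusted p under 0.05, and 0 in DESeq2), 8 had both high MMP libraries above both low ones (14.9% of well-expressed genes) and 3 the reverse (22.7%), and the median difference was 0.08. The differences ran from -0.28 for the kinase gene *Taok2* to 0.25 for *Taok3*, with *Wwc2*, a KIBRA relative, at 0.24. *Lats1*, the paralog of *Lats2*, differed by -0.09 (SE 0.17; limma adjusted p = 0.946).

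Of 12 junction and polarity regulators, 9 were in the table (*Wtip*, *Fat4* and *Dchs1* were not analysed here), and 0 passed limma, DESeq2 or an unadjusted p under 0.05. Their median difference was 0.03, with the atypical cadherin gene *Fat1* at -0.27, the polarity gene *Scrib* at -0.19 and *Pard3* at 0.14.

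Among the coactivators and TEAD partners, 6 of the 8 listed genes were in the table (*Vgll1* and *Vgll2* were not analysed here). *Wwtr1*, which encodes TAZ, differed by 0.02, and the TEAD paralogs *Tead2*, *Tead3* and *Tead4* by -0.22, -0.12 and -0.03. The exception was *Vgll3*, which encodes a vestigial-like cofactor that binds TEAD proteins in place of YAP. It had 271 and 319 normalized reads in high and 167 and 163 in low MMP cells, with no overlap. Its fold was 1.78 and its log2 difference 0.83 (SE 0.13; limma adjusted p = 0.472), above the 0.64 of *Ccn1*, though that contrast was not tested, and DESeq2 called it higher (adjusted p = 0.0201).

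A longer list of 16 other YAP and TEAD targets had 15 genes in the table, 12 of them with a mean of at least 10. Limma called 0 of them and DESeq2 called 0. At an unadjusted p under 0.05, 1 was higher (*Nuak2*, 0.32) and 1 lower (*Fjx1*, -0.75, at 23.4 to 45.3 normalized reads). Of these 12 genes, both high MMP libraries were above both low ones for 5 and below for 2, against 14.3% and 23.7% of all genes with such a mean, and 9 were highest in high MMP replicate 2, against 24.6%. The median difference of the 12 was 0.15, and 0.05 without that library. *Arhgef17* differed by -0.28.

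**Figure D5:**
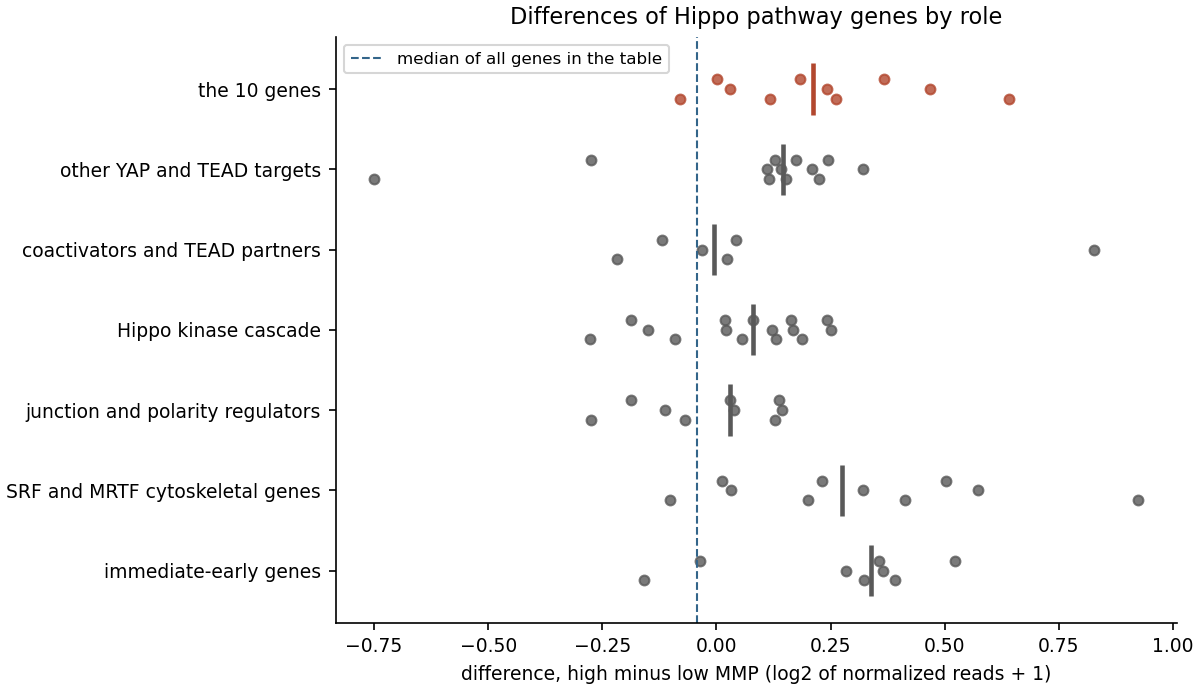
Difference between high and low MMP cells (log2 of normalized reads plus 1) for the 10 genes (red) and, in grey, genes of related lists with a mean of at least 10. Each point is a gene, thick bars are list medians and the dashed line is the median of all genes (-0.04). The medians are 0.21 for the 10 genes, 0.15 for other YAP and TEAD targets, -0.0045 for coactivators and TEAD partners, 0.08 for the kinase cascade, 0.03 for junction and polarity regulators, 0.28 for SRF and MRTF genes and 0.34 for immediate-early genes.

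Related programs and other markers were measured beside the 10 genes. SRF and its coactivator MRTF control actin genes and share some targets with YAP. Of 13 listed SRF and MRTF genes, 12 were in the table and 10 had a mean of at least 10, with a median difference of 0.28. Limma called 0 of these 10. At an unadjusted p under 0.05, 3 were higher, against 3.95% of all genes. DESeq2 called 2 higher, *Actg1* (0.57) and *Cnn2* (0.50), against 0.676% of the genes it gave an adjusted p. *Tpm2* differed by 0.92 at 12.2 to 43.2 normalized reads. Of 8 immediate-early genes limma called 0, and 0 were highest in high MMP replicate 2, against 26.1% of well-expressed genes. Their summed level was 37162 and 26254 normalized reads in high and 19072 and 33421 in low MMP cells, with *Egr1* at 0.52, *Junb* at 0.39 and *Atf3* at 0.36.

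The cell cycle lists had larger median differences than the 10 genes. The 8 G2/M genes summed to 79000 and 84950 normalized reads in high and 52206 and 54743 in low MMP cells, with a median difference of 0.75 (*Ccnb1* 0.99, *Aurka* 0.98, *Top2a* 0.96). Limma called 0 of them. At an unadjusted p under 0.05, 6 were higher, against 3.95% of all genes. DESeq2 called 5 higher, against 0.676% of the genes it gave an adjusted p. High MMP replicate 2 was the highest library for 7 of these 8, against 26.1% of well-expressed genes. The 8 S-phase genes summed to 37535 and 28368 in high and 45824 and 46812 in low MMP cells, with a median of -0.45 (*Cdc6* -1.43, *Ccne2* -0.91, *Mcm4* -0.56). Limma called 0 of these S-phase genes. At an unadjusted p under 0.05, 5 were lower, against 6.01% of all genes. DESeq2 called 2 lower, *Cdc6* and *Ccne2*. Both high MMP libraries were below both low ones for 8 of the 8, against 22.7% of well-expressed genes. High MMP replicate 2 was the highest library for 0 of them, against 26.1%. Among the epithelial markers the summed level was 65174 and 47592 in high and 54730 and 62416 in low MMP cells, and *Cdh1* differed by -0.34, *Krt14* by 0.32 and *Epcam* by -0.16. *Pdgfra* differed by -0.72 (DESeq2 adjusted p = 0.0399), and *Dcn*, the other fibroblast marker in the table, by 0.67 (SE 0.67) at 2 to 12 reads per library. The part of cell cycle phase, of gene length and of the cell types that these markers stand for in the differences of the 10 genes was not tested. In bulk samples, fewer cells that carry a transcript and less of it per cell cannot be told apart.

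The 3 of the 10 genes with the widest range over the libraries were *Ccn1* (0.99 on the log2 scale), *Ccn2* (0.70) and *Ajuba* (0.60). For each, the 3 nearest profiles were taken among 9989 other well-expressed genes, by the root mean square distance between log2 values centred on each gene's own mean over the 4 libraries. Among those nearest to *Ccn1* were *Il11* (distance 0.066) and *Tnfaip3* (0.091), an inhibitor of NF-kB. *Il11* had 249 and 238 normalized reads in high and 126 and 191 in low MMP cells, low in the same library as *Ccn1*. Nearest to *Ccn2* were *Mfap3l* (0.028), *Ccbe1* (0.034) and *Cit* (0.035), and nearest to *Ajuba* were the ephrin receptor gene *Epha4* (0.020), the growth factor gene *Nrg1* (0.024) and *Kantr* (0.031). With 4 libraries, these distances describe the samples at hand.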

How the data were processed

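RNA was isolated from 4T1 cells sorted for high or low MMP (2 samples each, groups and replicate numbers from the sample titles), and stranded mRNA libraries were made from 200 ng. The authors aligned reads to the mouse transcriptome (GRCm38, mm10) with STAR, the submitters' processing notes also name HTSeq, and tool versions, the annotation release and the strand setting of the counting were not given in the sources used here. The values deposited by the authors are a normalized signal per gene: gene counts divided by the library total, so that each column sums to 20000000, kept for genes above 0 in at least 2 libraries. The table had 0 columns of no sample.

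Dividing each column by its smallest step (0.758 to 0.885) gave whole reads for 100% of values (tolerance 0.1 read), and so the depth of each library. Intervals and SEs rest on 2 samples per group. Identifiers were matched to GENCODE M21 (19993 of 20197 matched), which gave positions and exonic lengths. Genes on the opposite strand overlap *Ccn2*, *Lats2* and *Tead1*, at 0 to 12.2 normalized reads, and *4930584E12Rik* overlaps *Amotl1* on the same strand, at 0.872 to 3.79.

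log2(value + 1) was tested with limma 3.58.1 (trend) in R 4.3.3, high against low MMP, with Benjamini-Hochberg adjustment over all 20197 genes and a threshold of 0.05. With a pseudocount, differences of weakly expressed genes come out too small. Alternatives were pseudocounts of 0.1 and 10, filters on a mean of 10 and 100, median-of-ratios scaling (factors 0.982 to 1.019), quantile normalization, no trend, a replicate block, edgeR 4.0.16 and DESeq2 1.42.0 on the recovered reads (DESeq2 gave no adjusted p for 8223 genes, which stayed missing), and leaving out each library. A loess correction on exonic length (span 0.5) and a crossed block were added after seeing the data. The scripts were tested on simulated data. Named genes were the 10 genes, their paralogs, the 3 genes of each other list with the largest difference at a mean of at least 10, and the 3 nearest profiles of the 3 genes of widest range. The profile of 1 of these nearest genes is not reported here. *Fos*, *Dcn*, *Ptprc*, *Pecam1* and *Cdh5* were named after their values were seen. The 10 genes and all lists were chosen with earlier results of these data known.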

Additional observations from a re-analysis of the deposited data

How the results depend on the processing

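With 2 samples per group, the tool mattered more for the calls than the scaling did. limma called 0 genes and 0 of the 10 genes under each pseudocount, filter, scaling and trend setting and without each library in turn, whereas DESeq2 called 118 genes (81 higher, 37 lower; 660 at an unadjusted p under 0.05), 2 of them among the 10 (*Ccn1* and *Ankrd1*). Leaving out 1 library at a time, the median difference of the 10 genes ran from -0.0029 (without high MMP replicate 2) to 0.37 (without high MMP replicate 1). The differences ran from -0.31 to 0.15 for *Axl*, from -0.021 to 0.50 for *Amotl2*, from -0.014 to 0.54 for *Ajuba*, from -0.15 to 0.21 for *Lats2* and from -0.053 to 0.053 for *Yap1*, and kept their sign for the other 5 genes, among which *Tead1* ran from 0.0081 to 0.23. Under the settings that keep all libraries, 134 of 140 differences of single genes kept their direction and side of the threshold, 5 passed it (by DESeq2 or the crossed block) and 1 changed sign (*Yap1*, -0.0073 with quantile normalization). The cause of these changes was not tested.

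After subtracting the group mean, libraries with the same replicate number in their titles did not deviate together across genes. Their correlation was -0.19, -0.42 and -0.57 when genes averaged at least 1, 10 and 100 normalized reads. With 2 libraries per group, it rests on the difference within each group alone. Whether the numbers were crossed between the groups was not tested, and the labels do not say so. With the replicate number as a block, limma called 0 genes (1055 at an unadjusted p under 0.05) and gave the 10 genes adjusted p-values of at least 0.798, and edgeR called 106 genes (63 higher, 43 lower; 918 at an unadjusted p under 0.05) and 0 of the 10. With the numbers crossed, edgeR called 733 genes (351 higher, 382 lower), 3 of the 10 among them (*Ccn1*, *Ccn2* and *Ankrd1*), and limma 0. The crossed block was chosen from the correlations of these same libraries, so its calls are not separate support for a difference. *Ccn2* was called under no other setting.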
